A study of Mus musculus with 6 samples.

Results

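The genes described here are 10 members of the MHC class II antigen presentation pathway, H2-DMa, H2-DMb1, H2-DMb2, H2-Aa, H2-Ab1, H2-Eb1, H2-Oa, H2-Ob, Cd74 and Ciita. They were chosen by name, with the values of mutant against control nerves known, and H2-DMa was set against the other 9 because of those values. All 10 had 1 probe set each among the 20239 named genes of the array. Because the mutant and control values of these genes chose them, their differences are given as a description with no test.

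Gene expression had been measured in whole sciatic nerves of mice aged 25 days on Affymetrix whole-transcript arrays, 1 array per mouse. The 3 mutant mice were DhhCre::Sip1 flox/flox and the 3 control mice were Sip1 flox/flox without the Cre transgene, so that both groups carried the floxed alleles. Sip1 is the former name of Zeb2, a zinc finger transcription factor, and DhhCre is active in the Schwann cell lineage, so other cells of the nerve are not its intended target. Neither strain nor haplotype of the H2 locus is stated in the labels, and class II chains differ in sequence between haplotypes. The arrays gave log2 values from 3.55 to 14.52, with array medians between 7.99 and 8.08. All differences below are mutant minus control on that scale.

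MHC class II molecules are pairs of an alpha and a beta chain that show peptides from the endosome to CD4 T cells, and they are made mainly by dendritic cells, macrophages and B cells. The invariant chain, encoded by Cd74, occupies the peptide groove until proteases cut it down to a short remnant. The H2-DM heterodimer then exchanges that remnant for antigen peptides, and H2-O restrains H2-DM. Ciita is the coactivator that switches on the class II genes together, through an X box and a Y box shared by their promoters. In peripheral nerve, class II is found on resident macrophages, and Schwann cells can display it under inflammatory conditions.

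The X and Y boxes are shown because these genes are known as a set with a shared control region, while their values in the mutant nerves differed. RefSeq (GRCm38.p6) start windows of 7 of the 10 genes were used, 8 windows in all since H2-DMa has 2 annotated starts. No window of H2-Ab1, Cd74 or Ciita was used here. The stretches of H2-Aa and H2-Oa, where the search described below did not find the pair, are described in words. The stretches run from 120 to 31 bases before each start on the plus strand. Capitals mark AG, any 2 bases, AC, any 3 bases and TG (a core of the X box), ATTGG (the core of the Y box) or CACCTG (an E-box of the kind that ZEB proteins bind), on the strand of the gene, and none of these matches overlap each other.
H2-DMa, the first start, chr17:34122712-34122801: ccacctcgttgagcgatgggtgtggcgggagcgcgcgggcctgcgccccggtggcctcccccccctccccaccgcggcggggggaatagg
H2-DMa, the second start, chr17:34125398-34125487: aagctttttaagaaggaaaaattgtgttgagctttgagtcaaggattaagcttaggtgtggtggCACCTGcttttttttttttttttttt
H2-DMb1, chr17:34153071-34153160: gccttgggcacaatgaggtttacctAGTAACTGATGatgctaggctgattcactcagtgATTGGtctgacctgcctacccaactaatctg
H2-DMb2, chr17:34145129-34145218: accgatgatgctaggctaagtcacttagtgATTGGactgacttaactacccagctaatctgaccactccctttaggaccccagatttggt
H2-Eb1, chr17:34305747-34305836: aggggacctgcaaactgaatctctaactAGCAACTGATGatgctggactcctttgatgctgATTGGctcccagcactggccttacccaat
H2-Ob, chr17:34238785-34238874: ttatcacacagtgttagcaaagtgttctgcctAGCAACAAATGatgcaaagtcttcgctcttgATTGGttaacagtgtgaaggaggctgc

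The X core followed by the Y core, with 10 to 30 bases between them, was found in H2-DMb1, H2-Eb1 and H2-Ob, with 23, 22 and 20 bases between. Of all 32851 promoter windows of 300 bases, 0.286% held that pair when both strands were searched. ATTGG alone was found in a window of all 7 genes, as in 37.4% of all windows, the X core in 14.8% and CACCTG in 20.2%. In H2-DMa the first window held none of these letters, and the second held ATTGG 198 bases and CACCTG 56 bases before the start. H2-Aa held ATTGG 48 bases before the start and no X core, and H2-Oa held ATTGG 43 bases and an X core 141 bases before the start, too far apart to count as the pair. No other window of the 7 genes held CACCTG. Both windows of H2-DMa lie at upstream annotated starts, so the letters before a start closer to the coding part of H2-DMa were not searched. Only the exact letters given were searched, so a box that departs from them was not counted. Which start of H2-DMa the nerve used was not measured, and a match or its absence in these windows says nothing on whether a factor bound.

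H2-DMa, the alpha chain of the peptide exchange factor, was far lower in mutant nerves. It read 9.29, 8.65 and 9.21 in mutants 1 to 3, against 11.44, 11.30 and 12.08 in controls 1 to 3. The groups did not overlap, and the lowest control lay 2.01 above the highest mutant. The means were 9.05 ± 0.35 in mutants and 11.61 ± 0.42 in controls (SD, n = 3 each). The difference was −2.55 (SE 0.25, 95% confidence interval −3.15 to −1.96), or 5.87-fold lower in mutants, with an interval of 3.90-fold to 8.86-fold. Among all 20239 genes, ordered from the largest decrease, it stood at rank 46.

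The groups of H2-DMa did not overlap, so any pairing or subset of the mice had to show a lower value in mutants. Only the size of the difference could vary. Between mice of the same replicate number it was −2.14, −2.65 and −2.87 for numbers 1, 2 and 3. Xist, a transcript of female cells, placed mutants 1 and 2 and control 3 as male and the other mice as female. The H2-DMa difference was −3.11 among males (2 mutants, 1 control) and −2.16 among females (1 mutant, 2 controls). Nerves 2 of both groups held far more skeletal muscle transcript than nerves 1, with nerves 3 between them. Without mutant 2 and control 2 the difference of H2-DMa was −2.50.

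**Figure D1:**
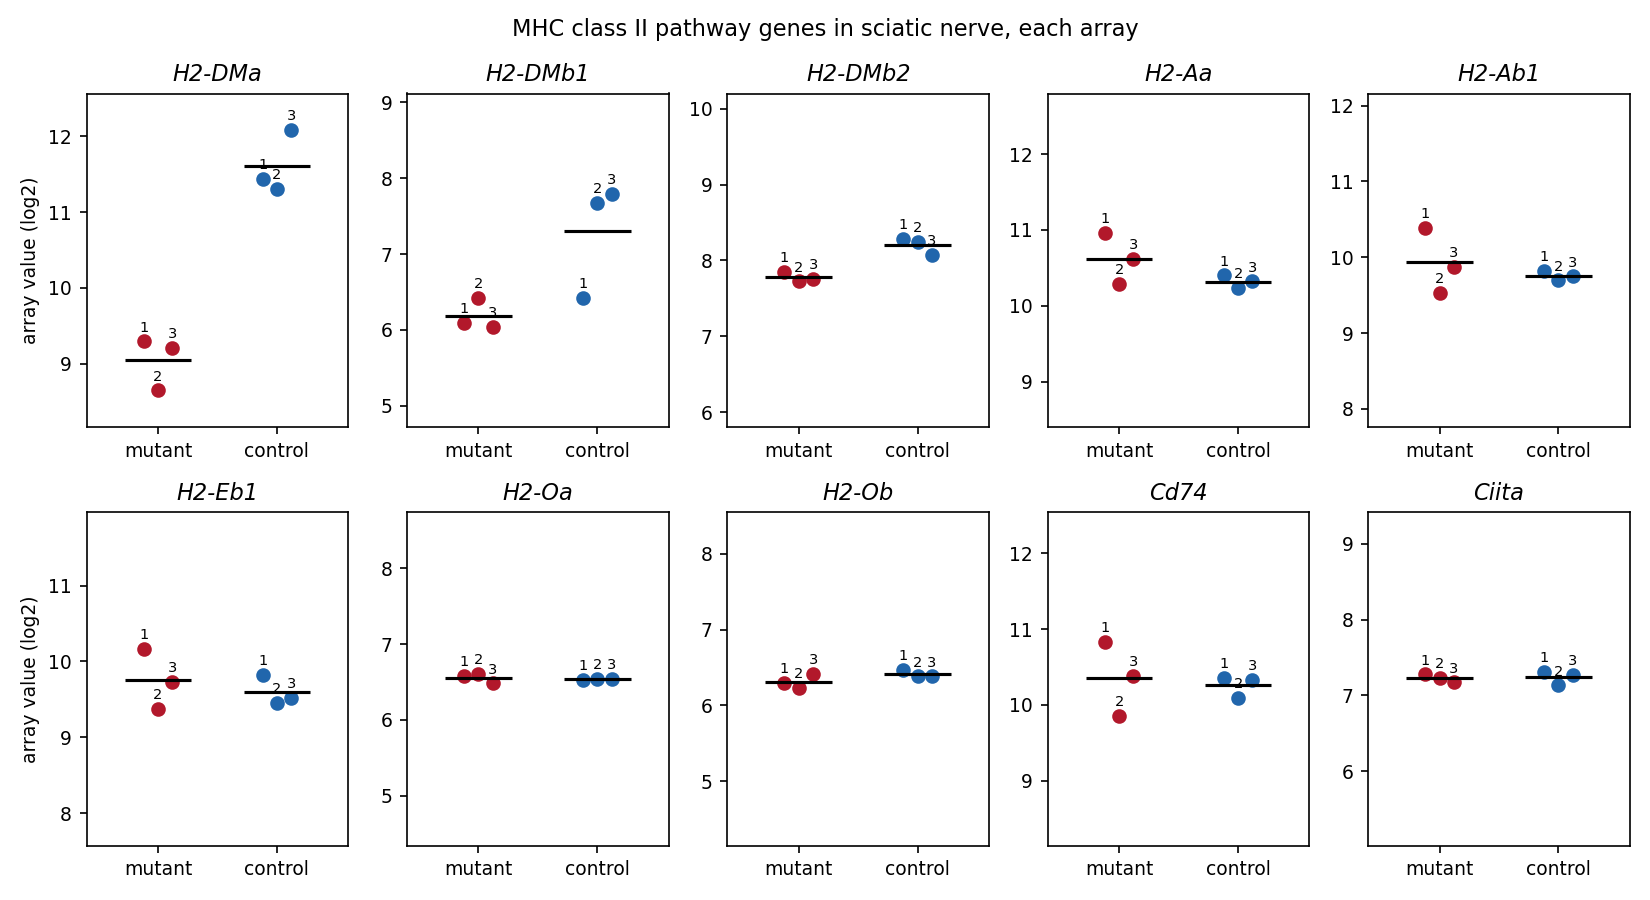
Array values (log2) of the 10 class II pathway genes in mutant (left, red) and control (right, blue) nerves, with the replicate number above each point and a bar at the group mean. Every panel spans the same number of log2 units. H2-DMa stood between 8.65 and 9.29 in mutants and between 11.30 and 12.08 in controls, while the other panels show smaller or no separation.

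The beta chains that pair with H2-DMa were lower by less. H2-DMb1 read 6.09, 6.42 and 6.04 in mutants, against 6.42, 7.68 and 7.80 in controls. Control 1 thus stood with the mutants, just above mutant 2, while controls 2 and 3 stood well apart. The means were 6.18 ± 0.21 in mutants and 7.30 ± 0.76 in controls, a difference of −1.12 (SE 0.35, 95% confidence interval −1.96 to −0.28), which was −1.56 without control 1.

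H2-DMb2 read 7.85, 7.72 and 7.75 in mutants, against 8.28, 8.24 and 8.07 in controls. The groups did not overlap, but they lay close together, with a difference of −0.42 (SE 0.09, 95% confidence interval −0.64 to −0.21). H2-DMb1 and H2-DMb2 are near-identical copies that lie next to each other, and how far their probes tell them apart is not known from the sources. The order of the arrays differed between them, since control 1 was the lowest control for H2-DMb1 and the highest for H2-DMb2.

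The members that encode peptide-presenting chains showed no such difference. H2-Aa, the alpha chain of I-A, read 10.96, 10.28 and 10.61 in mutants, against 10.40, 10.23 and 10.32 in controls. The groups overlapped, and the difference was 0.30 (SE 0.17, 95% confidence interval −0.10 to 0.70). H2-Ab1, its beta chain, read 10.39, 9.53 and 9.88 in mutants, against 9.82, 9.69 and 9.75 in controls, a difference of 0.18 (SE 0.20, interval −0.31 to 0.66). Mutant 2 lay below all controls and mutants 1 and 3 lay above them. H2-Eb1, the beta chain of I-E, read 10.17, 9.37 and 9.73 in mutants, against 9.83, 9.45 and 9.52 in controls, a difference of 0.16 (SE 0.21, interval −0.34 to 0.65).

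Cd74, the invariant chain, read 10.83, 9.86 and 10.38 in mutants, against 10.36, 10.10 and 10.33 in controls. The groups overlapped, with a difference of 0.09 (SE 0.23, interval −0.46 to 0.65). The spread of Cd74 within the mutants (SD 0.49) was wider than within the controls (SD 0.14), and the same held for H2-Aa (0.34 and 0.08), H2-Ab1 (0.43 and 0.07) and H2-Eb1 (0.40 and 0.20). Mutant 1 was the highest of the 6 arrays for all 4 genes, and mutant 2 was the lowest for 3 of them and second lowest for H2-Aa, where control 2 was lowest. Without mutant 1 the differences of H2-Ab1 (−0.0502), H2-Eb1 (−0.0455) and Cd74 (−0.142) turned below 0, and leaving out 1 mouse at a time gave up to 0.376, 0.352 and 0.344 for them. The mean of the 4 genes was 10.59, 9.76 and 10.15 in mutants, against 10.10, 9.87 and 9.98 in controls.

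The remaining members lay low on the array and moved little. H2-Oa, the alpha chain of the H2-DM inhibitor, ranged from 6.48 to 6.60 in mutants and from 6.53 to 6.54 in controls, a difference of 0.02 (SE 0.08). H2-Ob, its beta chain, ranged from 6.23 to 6.42 in mutants and from 6.38 to 6.47 in controls, a difference of −0.10 (SE 0.09). Both stood below the lower quartile of every array (6.59 to 6.80), as H2-DMb1 did on 4 of 6 arrays, and no detection calls were used, so such values may be background. Ciita, the coactivator, ranged from 7.17 to 7.28 in mutants and from 7.13 to 7.31 in controls, a difference of −0.01 (SE 0.09, 95% confidence interval −0.22 to 0.19). The signs of H2-Oa and Ciita turned under 3 and 4 alternatives.

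**Figure D2:**
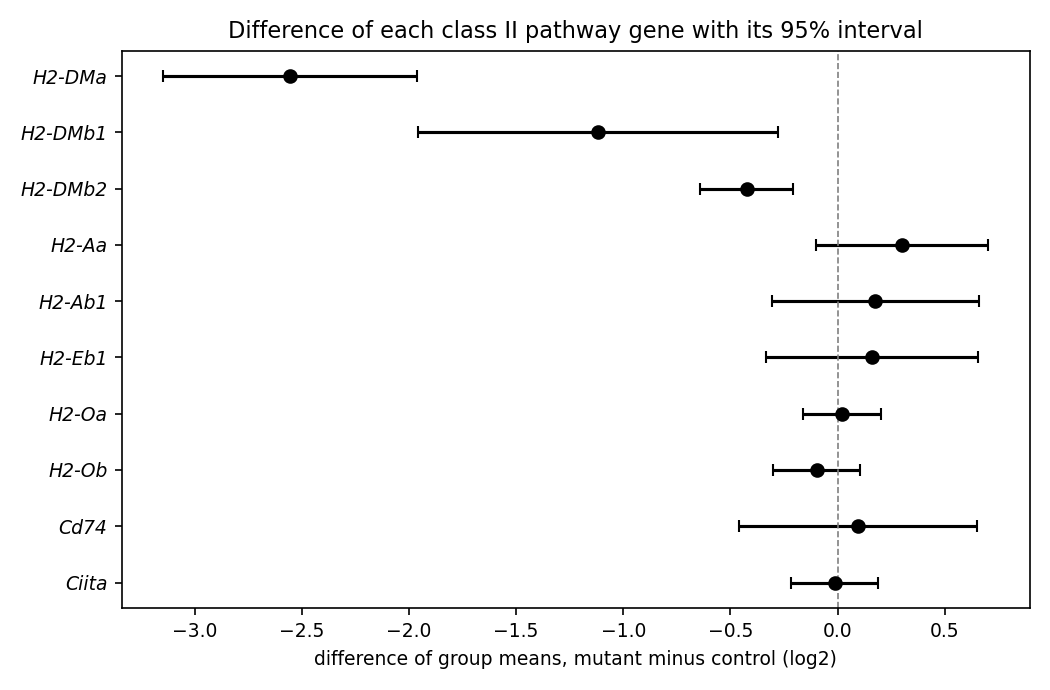
Difference of group means, mutant minus control (log2), for the 10 class II pathway genes (points) with the 95% confidence interval of each (bars). H2-DMa lies at −2.55, H2-DMb1 at −1.12 and H2-DMb2 at −0.42, and the intervals of the other 7 genes include 0.

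The 9 genes other than H2-DMa ran from −1.12 to 0.30, with a median of 0.02, beside a median of −0.02 over all genes. H2-DMa minus that median of the others was −2.58. The value of H2-DMa minus that of another member was also taken within each array, and the mutant mean of this quantity was compared with the control mean. It differed by −2.86 for H2-Aa, −2.73 for H2-Ab1, −2.71 for H2-Eb1, −2.65 for Cd74, −2.58 for H2-Oa, −2.54 for Ciita, −2.46 for H2-Ob, −2.13 for H2-DMb2 and −1.44 for H2-DMb1. For each of the 9 pairs, the 3 mutant values lay below the 3 control values. This followed from the gap of 2.01 between the H2-DMa groups, since no other member spanned more than 1.76 over the 6 arrays. Of the 10 genes, 3 had groups that did not overlap (H2-DMa, H2-DMb1 and H2-DMb2, all lower in mutants), where 11.8% of all genes lay wholly lower. By limma's adjusted p under 0.05, 2 were lower (H2-DMa and H2-DMb2) and 0 higher, where 3.89% of all genes were lower and 5.74% higher. Nothing is read from these counts, since the same values chose the genes.

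Along chromosome 17, the 2 beta chain genes that follow H2-DMa also had lower means in mutants, and the measured genes on either side of these 3 lay near no difference. For H2-DMb1, control 1 stood with the mutants, and 4 of 6 arrays read below their lower quartile. In RefSeq (GRCm38.p6) the measured genes run in the order Col11a2, H2-Oa, Brd2, H2-DMa, H2-DMb2, H2-DMb1, Psmb9, Tap1, Psmb8, Tap2, H2-Ob, H2-Ab1, H2-Aa, H2-Eb1, H2-Eb2, H2-Ea and Btnl2. Brd2, a chromatin reader whose annotation overlaps that of H2-DMa, read 10.63, 10.40 and 10.48 in mutants, against 10.43, 10.47 and 10.57 in controls. The groups overlapped, and the difference was 0.01 (SE 0.09, limma adjusted p = 0.949). Its sign turned with arrays centred on their medians, with sex as a covariate and without mutant 1 or control 1. From Psmb9 to Tap2, the proteasome and transporter genes that lie between H2-DMb1 and H2-Ob, the differences ran from 0.04 (Psmb8) to 0.23 (Tap2), and none of these 4 passed.

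**Figure D3:**
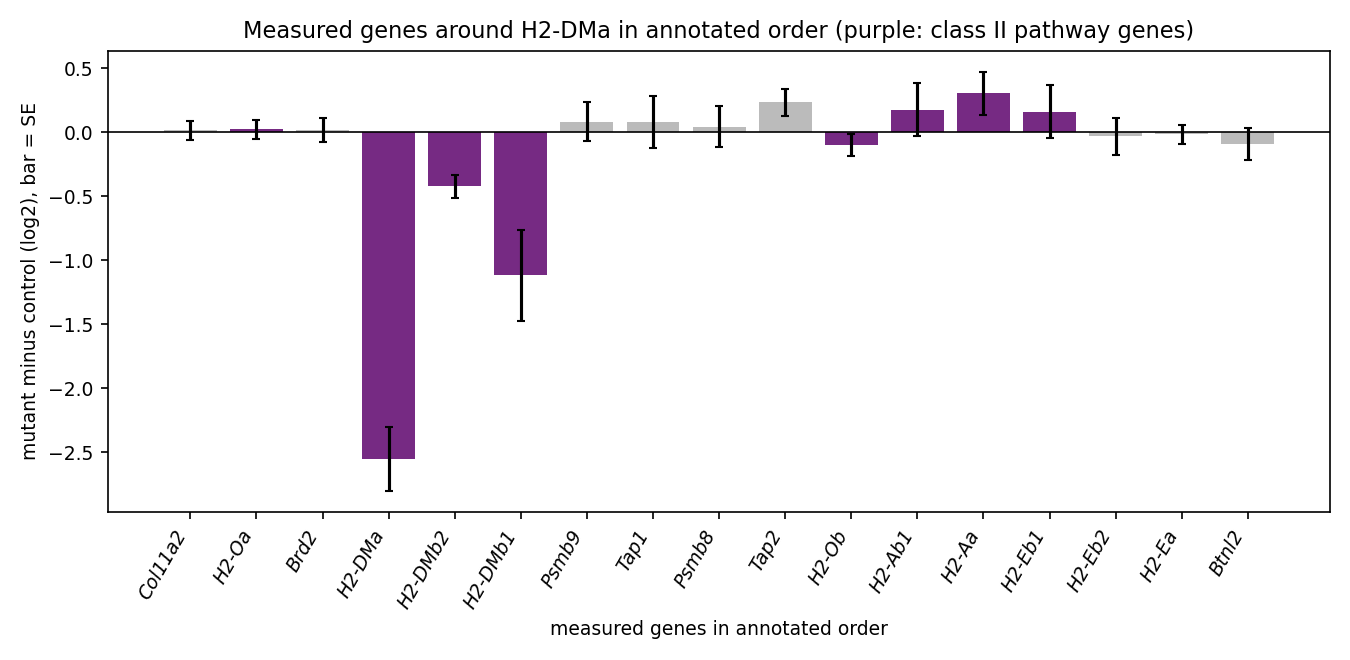
Difference of group means, mutant minus control (log2), for 17 measured genes around H2-DMa in their annotated order (bars, with SE; purple for the class II pathway genes, grey for others). H2-DMa, H2-DMb2 and H2-DMb1 stand below 0 side by side, while Brd2 (0.01) and Psmb9 (0.08) on either side of them lie near 0.

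Across the 6 arrays, the genes most like H2-DMa were Hsd17b7, an enzyme of sterol synthesis (Pearson r = 0.9998), Gnai1, an inhibitory G protein subunit (0.9996), the calcium-binding protein Efhd1 (0.9992), Elovl1, an elongase of very long fatty acids (0.9991), and the axonal potassium channel Kcna1 (0.9982). They were the 5 highest of all named genes outside the 10, and a choice among so many genes favours values near 1. A gap between the groups also raises r. With H2-DMa it was 0.990 for Zeb2, 0.988 for S100b and 0.978 for Erbb3, which were lower in mutants and not picked by r. Hsd17b7 read 9.41, 8.82 and 9.37 in mutants, against 11.30, 11.20 and 11.93 in controls. In both groups its arrays stood in the same order as those of H2-DMa, with mutant 2 lowest and control 3 highest. Zeb2 itself read 10.96, 10.66 and 11.01 in mutants, against 11.67, 11.57 and 12.02 in controls, a difference of −0.88 (SE 0.15, limma adjusted p = 0.0137, 0.0522 without mutant 1). Where its probes lie relative to the floxed part is not stated in the labels, so the value does not measure the deletion.

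A different set of genes was most like the mean of H2-Aa, H2-Ab1, H2-Eb1 and Cd74. These were the hyaluronan synthase Has1 (r = 0.9864), the tyrosine phosphatase Ptpn1 (0.9854), the G protein regulator Rgs4 (0.9846), Evi2b, a leukocyte membrane protein (0.9823), and the oxidoreductase Wwox (0.9722). None of these 5 passed the test between mutant and control, with differences from 0.06 to 0.17 and limma adjusted p from 0.551 to 0.748. The groups overlapped for that mean, so genes picked for following it this closely had little room to pass, and nothing is read from this. The difference of Ptpn1 was −0.0042 without mutant 1.

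**Figure D4:**
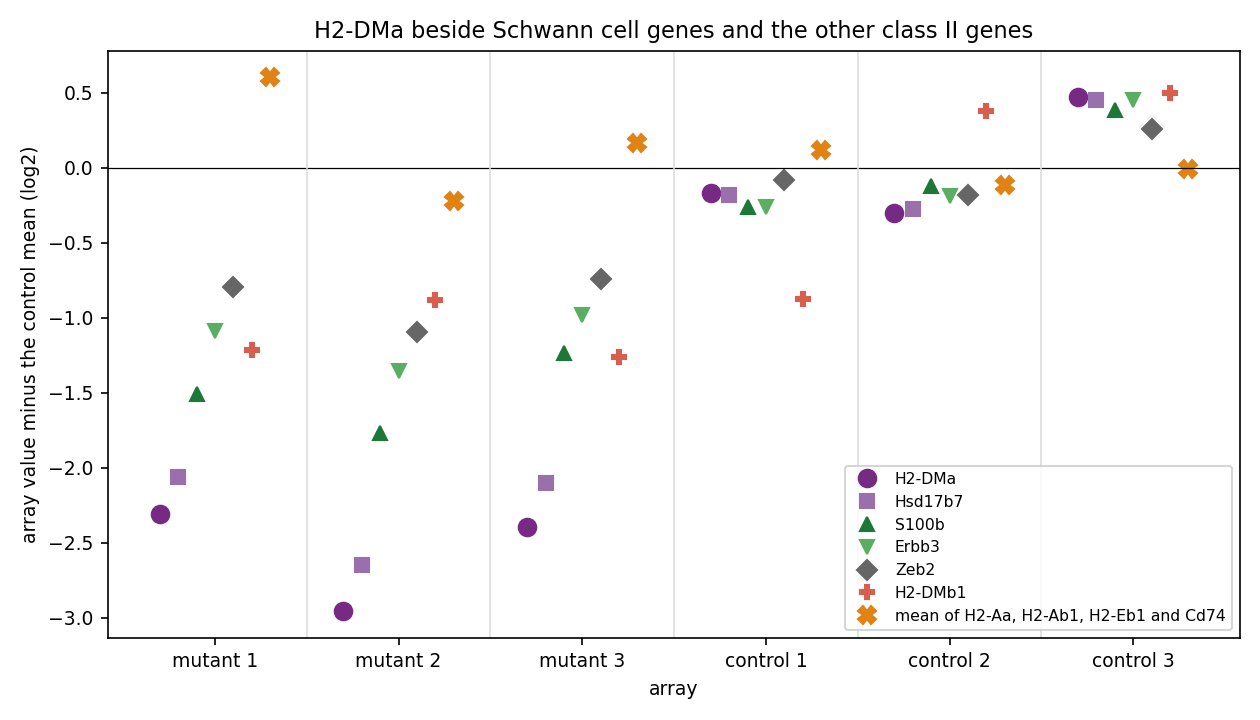
Array values minus the control mean (log2) on each of the 6 arrays for H2-DMa, its most similar gene Hsd17b7, the Schwann cell genes S100b and Erbb3, Zeb2, H2-DMb1 and the mean of 4 class II genes (orange). H2-DMa lies at −2.31, −2.96 and −2.39 in mutants 1 to 3, against −0.17, −0.30 and 0.47 in controls 1 to 3, while the orange points stay between −0.22 and 0.60.

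Markers of the cells in the nerve were read beside these genes. Of 6 listed Schwann cell markers 4 were measured, all with lower means in mutants, and 2 fell by limma. S100b, a calcium-binding protein of Schwann cells, read 9.68, 9.41 and 9.95 in mutants, against 10.92, 11.06 and 11.57 in controls (−1.51, SE 0.20, limma adjusted p = 0.00559). Erbb3, the neuregulin receptor, differed by −1.14 (SE 0.20, adjusted p = 0.0162), and did not pass without mutant 1, mutant 3 or the muscle-rich pair (adjusted p from 0.051 to 0.071). The summed level of the 4 was 11.66 to 12.12 in mutants and 12.73 to 13.30 in controls, on the log2 scale. It was thus lowest in mutant 2 and highest in control 3, as was H2-DMa. In whole nerves fewer cells of a type and less RNA per cell cannot be told apart, and the part of these markers in the difference of H2-DMa was not tested.

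Markers of macrophages and other leukocytes gave 1 call, higher in mutants. Of 12 macrophage markers none passed by limma and 5 were higher at an unadjusted p under 0.05. Their summed level was 13.14 to 13.43 in mutants and 12.82 to 13.10 in controls. Lyz2, the macrophage lysozyme, had the smallest p, at 0.58 (SE 0.15, adjusted p = 0.0650). It did not pass in 13 of 17 alternatives. In the others, among them the replicate block (adjusted p = 0.0311), it passed, with adjusted p down to 0.00895. Of 7 pan-leukocyte markers 1 passed, Cd53, a tetraspanin, at 0.67 (SE 0.16, adjusted p = 0.0498), and the summed level was 11.71 to 12.09 in mutants and 11.42 to 11.76 in controls. The call of Cd53 held in 8 of 17 alternatives and had adjusted p up to 0.189 in the rest, among them the replicate block (0.0504) and all mice left out in turn but control 1. The sums of the 2 groups did not overlap for macrophages and overlapped for leukocytes, and their part in the differences of the class II genes was not tested.

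Dendritic cell, B cell and T cell markers gave 0 calls by limma among 8, 6 and 7 measured genes, with 1, 0 and 0 at an unadjusted p under 0.05. The summed levels overlapped, at 10.33 to 10.39 in mutants and 10.14 to 10.46 in controls for dendritic cells, 9.14 to 9.21 and 9.13 to 9.42 for B cells, and 9.52 to 9.72 and 9.53 to 9.73 for T cells. The smallest p of the lists belonged to the lectin Cd209a (0.50, adjusted p = 0.167), the B cell receptor subunit Cd79a (−0.27, 0.309) and Cd3e of the T cell receptor complex (0.14, 0.575). Cd209a passed with array weights (limma adjusted p = 0.0344) and did not in 15 of its 16 alternatives. Neutrophil and mast cell markers gave 0 calls of 6 and of 5, with 0 at an unadjusted p under 0.05 in each, the smallest p being those of S100a9 (−0.27, adjusted p = 0.230) and Kit (0.22, 0.279). Some markers of the dendritic cell, B cell, T cell and neutrophil lists, Cd79a among them, stood below the lower quartile of every array. Their values may be background, so the lack of calls does not measure the number of these cells.

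Other tissue in the samples differed between mice more than between groups for muscle and fat. The summed level of 8 skeletal muscle markers ran from 10.99 to 16.20 in mutants and from 10.66 to 16.36 in controls, and that of 6 adipocyte markers from 14.07 to 14.68 in mutants and from 13.41 to 15.26 in controls. The muscle sum was 10.99 in mutant 1 and 10.66 in control 1, 16.20 and 16.36 for number 2, and 13.96 and 14.11 for number 3. None of these markers passed by limma, with 0 at an unadjusted p under 0.05, the smallest p being those of Actn3 (−0.34, adjusted p = 0.933) and Lep (−0.85, 0.539). Of 6 fibroblast markers 2 rose, the proteoglycan Lum (0.99, SE 0.12, adjusted p = 0.00378) and the receptor Pdgfra (0.51, 0.0209). Of 7 endothelial markers 2 fell, Vwf (−0.43, adjusted p = 0.0283) and the tight junction protein Cldn5 (−0.42, 0.0350). At an unadjusted p under 0.05, 1 endothelial marker was higher, the cadherin Cdh5 (0.38, adjusted p = 0.214), and 3 were lower, among them the receptor Kdr (−0.57, adjusted p = 0.167). Lum passed in all 17 alternatives, Pdgfra in 12, and Vwf and Cldn5 in 9 each. The call of Pdgfra was lost when mutant 1, mutant 3, control 2 or control 3 was left out. Cldn5 lost its call without any one mouse but control 2, and Vwf without any one mouse. Under the replicate block the adjusted p of Cldn5 was 0.0503 and that of Vwf 0.0592. Without the muscle-rich pair Pdgfra, Cldn5 and Vwf did not pass, and Cldn5 did not with sex as a covariate (adjusted p = 0.0602). The fibroblast sum was 15.45 to 15.63 in mutants and 15.14 to 15.30 in controls, and the endothelial sum 13.25 to 13.27 in mutants and 13.10 to 13.43 in controls.

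Beyond the 10 genes, 54 of 56 listed genes of antigen presentation were measured, and 6 rose and 0 fell (limma adjusted p under 0.05), with 17 higher and 1 lower at an unadjusted p under 0.05. Over all genes 5.74% rose and 3.89% fell, and 13.7% were higher and 8.67% lower at the unadjusted p. The median was 0.09, beside −0.02 over all genes. Of the 54 genes, 17 had their mutant values wholly above and 2 wholly below their control values, where 16.3% and 11.8% of all genes had. None of the 6 remained without mutant 1, without mutant 3 or without control 2. At an unadjusted p under 0.05 the genes higher were then 11, 9 and 12, and those lower 2, 1 and 1. Without control 1, Icosl and Lgmn lost their calls, without control 3 Ctss, Cst3, Lgmn and Nlrc5 did, and without mutant 2 Cst3 did. With sex as a covariate Pdia3 (adjusted p = 0.0527), Nlrc5 (0.0532) and Cst3 (0.0808) did not pass, and without the muscle-rich pair Nlrc5 (0.0833) and Cst3 (0.136) did not. The genes are named below with their values over all mice.

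The list of lysosomal processing, which holds proteases and an inhibitor of them, had 3 of the 6. Ctss, the cathepsin that trims the invariant chain to its last remnant, read 9.46, 8.99 and 9.27 in mutants, against 8.66, 8.33 and 8.35 in controls (0.80, SE 0.15, limma adjusted p = 0.0194). All 3 mutants lay above all controls. Lgmn, the asparaginyl endopeptidase, rose by 0.53 (SE 0.11, adjusted p = 0.0293), and Cst3, the cystatin that inhibits cathepsins, by 0.35 (SE 0.07, adjusted p = 0.0304). The other 7 of this list of 10 did not pass, and the median of the list was 0.22. Cst3 did not pass in 9 of 17 alternatives, with adjusted p of 0.0774 under the replicate block and up to 0.141 in the others.

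Among 8 genes of class II turnover and costimulation, Icosl, the ligand of the T cell costimulator ICOS, was the 1 that rose. It read 9.08, 8.64 and 8.94 in mutants, against 8.20, 8.24 and 8.22 in controls (0.67, SE 0.12, limma adjusted p = 0.0177). The median of the list was 0.01. Of 16 class I genes 2 rose, Pdia3, a chaperone of the peptide loading complex (0.56, SE 0.10, adjusted p = 0.0183), and Nlrc5, the class I counterpart of Ciita (0.66, SE 0.14, adjusted p = 0.0277). The median of that list was 0.21, and 15 of its 16 differences were above 0.

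No regulator of class II transcription passed. Of 6 measured factors that bind the X and Y boxes, Rfx5, a DNA-binding subunit of the X box complex, came closest, at 8.92, 8.71 and 8.82 in mutants, against 8.57, 8.24 and 8.28 in controls (0.45, SE 0.12, limma adjusted p = 0.0594). It passed in 5 of 17 alternatives, among them the replicate block (adjusted p = 0.0401), with adjusted p up to 0.232 in the others. The other 5 had no unadjusted p under 0.05. Of 12 genes of the interferon gamma axis, which induces Ciita, 0 passed and 3 were higher at an unadjusted p under 0.05. The receptor chain Ifngr1 had the smallest p (0.39, SE 0.11, adjusted p = 0.0855). It did not pass in 15 of 17 alternatives and passed in the others, with adjusted p down to 0.0103. The chains H2-Ea and H2-Eb2 stood at −0.02 and −0.03, with limma adjusted p of 0.920 and 0.928 and 0 at an unadjusted p under 0.05, and the sign of H2-Ea turned under 4 alternatives. Both chains stood below the lower quartile of every array, so their values may be background.

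**Figure D5:**
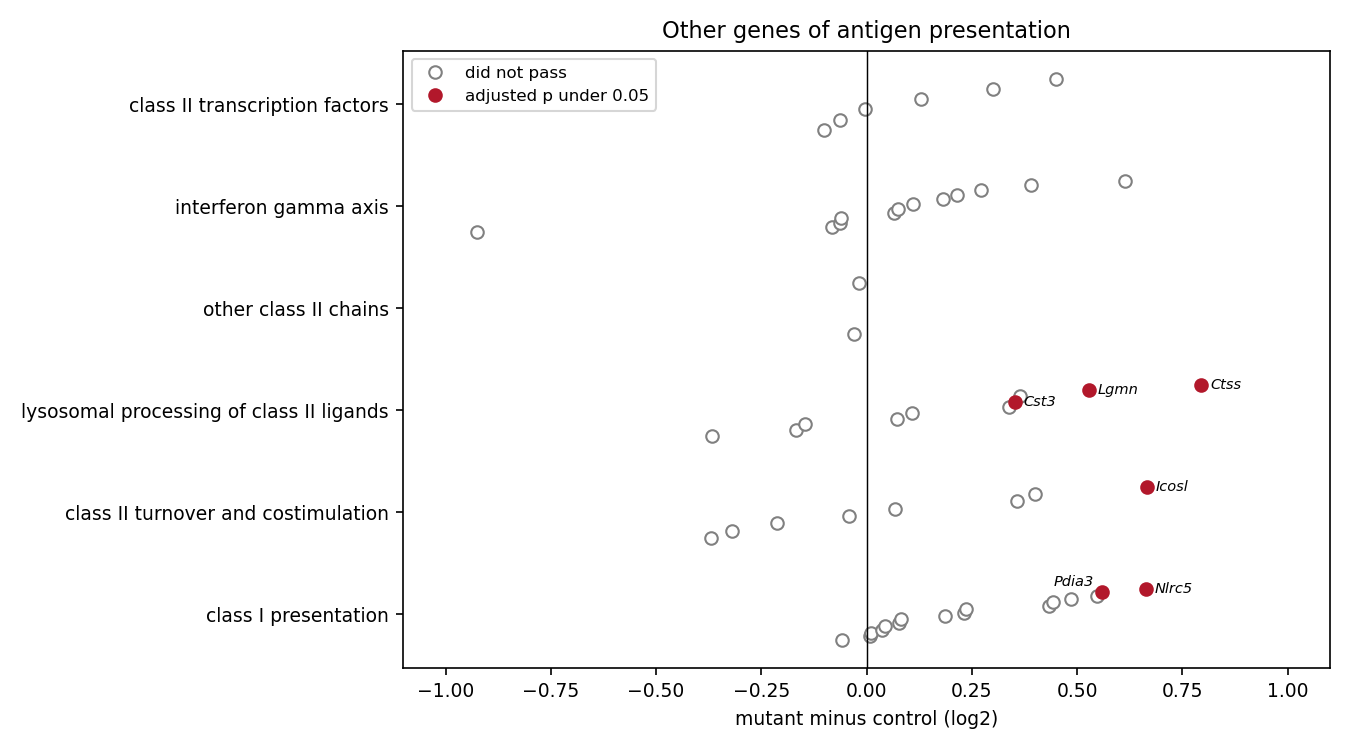
Difference of group means, mutant minus control (log2), for 54 measured genes of antigen presentation outside the 10 class II pathway genes, by list. Filled red points passed at a limma adjusted p under 0.05 and are named, and open grey points did not. The 6 that passed lie between 0.35 (Cst3) and 0.80 (Ctss).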

How the data were processed

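Total RNA of sciatic nerves had been extracted with Trizol, amplified, biotin-labelled and hybridised to 1-colour arrays, per the labels' protocols. The deposited table holds log2 values, with a column per mouse. The base of the logarithm was read from the range of values. The submitters' processing notes name limma, with no version or role. No source here describes the background correction, normalization or summarisation. Arrays have no read depth, and their number limits the precision.

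Of 21225 probe sets, 20239 were named by 1 symbol through Entrez gene numbers (RefSeq, GRCm38.p6), 0 by several, and 986 were unnamed here. All named genes went into 1 two-sided fit of mutant minus control without a block (R 4.3.3, limma 3.58.1, functions lmFit and eBayes), with Benjamini-Hochberg adjustment over all of them and a threshold of 0.05. SE is the moderated standard error, with 6.89 degrees of freedom, and a summed level is the log2 of the sum of linear values. The fit was tested on simulated data. Figures were drawn with matplotlib 3.10.9.

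The 10 genes, the 6 pathway lists, the 12 marker lists, the alternatives and the rule for named genes were chosen with earlier results of these data known. The rule named the 10 genes, Zeb2, up to 4 passing genes per pathway list and 3 per marker list by smallest p (otherwise the 1 with the smallest p), the neighbours of H2-DMa, and the 5 genes with the highest r. H2-Eb2, Psmb9, Psmb8, Tap1, Tap2, Cxcl9, Cdh5 and Kdr were named after their values were seen.

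Both groups carry replicate numbers 1 to 3 in the labels, which do not say what a number marks. Over all genes, the deviations of same-numbered mice from their group means correlated at 0.36, 0.574 and 0.295 for numbers 1, 2 and 3, all over 0.1, so the fit with the number as a block is given where it changes a call. Mutant 1 with control 3 correlated at 0.303, above the pair of number 3. The highest correlation between 2 arrays was 0.995, and every array counted as a separate sample. The labels call the samples biological replicates.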

Additional observations from a re-analysis of the deposited data

Results flagged for a closer look

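The difference of H2-Oa had opposite signs in the 2 sexes, 0.053 among males, where both mutants lay above the 1 control, and −0.050 among females, where the 1 mutant lay below both controls. The difference between the sexes was not tested, and all 6 values of H2-Oa lay below the lower quartile of their arrays.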

How the results depend on the processing

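Under 17 alternatives, the difference of H2-DMa stayed between −2.71 and −2.29 and its distance from the median of the other 9 genes between −2.72 and −2.34. Blocking on the replicate number left the H2-DMa difference at −2.55, as it must with 1 mutant and 1 control per number. Leaving out low genes, changing the variance prior or fitting every probe set likewise cannot move the difference of a gene that stays in the fit. The leave-one-out values of H2-DMa ran from −2.71 to −2.32. The median of the other genes moved to 0.17 without the lowest 50% of genes, where the lowest members are left out. Of the 54 other genes of antigen presentation, 17 were higher with array weights and 3 with sex as a covariate, instead of 6, and leaving out 1 mouse gave 0 to 7 higher and 0 to 1 lower, the 1 being the chemokine Cxcl9 without control 3, where 2 were higher. With the replicate block 6 passed, 5 of them shared with the fit without it: Cst3 was lost and Rfx5 gained, and of the other named genes Cd53, Cldn5 and Vwf lost their calls and Lyz2 gained one. Over all genes 1948 passed, 1161 higher and 787 lower. The counts were 3655, 2411 and 1244 with array weights, and 453 were lower without the muscle-rich pair. Leaving out 1 mouse gave 896 to 2021 in all, 502 to 1397 higher and 392 to 744 lower. Of 601 values of 36 named genes under the alternatives, 512 kept their direction and side of the threshold, 66 lost a call, 12 gained one and 11 turned sign, 0 of them with a call (limma). The sign turned for Brd2 with median centring (−0.0371) or sex as a covariate (−0.0112), and for H2-Ea with repeated quantile normalization (0.0722) or array weights (0.0057). Leaving out 1 mouse gave −1.67 to 1.11 for Actn3, −0.0487 to 0.0642 for Brd2, −0.0325 to 0.0102 for H2-Ea and −0.0042 to 0.171 for Ptpn1. Where a call or value changed, the cause was not tested, beyond the fewer mice or genes in the fit. A low signal limits H2-Oa, H2-Ob, H2-DMb1, H2-Ea and H2-Eb2.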
